A study of Mus musculus with 2 samples.

Results

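The genes described here are 10 mouse genes of dietary lipid uptake and lipoprotein formation in enterocytes (Npc1l1, Fabp1, Fabp2, Dgat1, Dgat2, Mttp, Apob, Apoa1, Apoa4 and Apoc3), out of 22380 protein-coding genes in the annotation used. They were examined in 2 lists of open chromatin regions (peaks) obtained by ATAC-seq, in which a transposase cuts accessible DNA and inserts sequencing adapters there. Every peak within 1 kb of any annotated start site of a gene was taken as a promoter peak of that gene. Every other peak in the gene body or within 50 kb on each side was taken as distal. All 10 genes were found in the annotation, and each had at least 1 promoter peak in at least 1 list.

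The libraries came from enteroids, which are epithelial cultures grown here from crypts of the ileum of 4-month-old mice of the strain C57Bl6/129sv. Control enteroids were labelled WT and, according to the methods, carried Taf4 lox/lox alleles without Cre. Taf4-inactivated enteroids were labelled KO and carried the same alleles with VilCreERT2, a tamoxifen-activated Cre recombinase driven by the Villin promoter, which is active in gut epithelium. Both received 1 µM 4-hydroxytamoxifen (4-OHT) for 3 days, and the comparison asks how accessibility differed shortly after loss of Taf4, which is part of TFIID, a complex that binds core promoters. There was 1 library per genotype, so every difference given is between 2 libraries, has no replicate check and carries no p-value. Accessibility is not a transcript level.

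Enterocytes take up fatty acids, monoglycerides and cholesterol at the brush border, rebuild triglycerides and cholesterol esters in the endoplasmic reticulum, and load them onto apolipoprotein B to form chylomicrons. Fatty acid-binding proteins carry the incoming fatty acids, and apolipoproteins A-I, A-IV and C-III are secreted with or onto the particles. Many of these genes are active in liver as well as in small intestine, and HNF4, GATA, CDX2 and HNF1 factors are known to act on genes of this kind in the gut.

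The control library was about 1.65 times deeper, with a lowest background of 12.1 reads against 7.35 after inactivation, as solved from the fold enrichment and p of the peaks. The control list held 90445 peaks and the Taf4-inactivated list 71282. Fold enrichment was measured against each library's own background and cannot be set side by side, so each peak is given by its percentile of fold within its own list, and differences between percentiles are in points. Of 7 marker genes of intestinal epithelium, 6 had a promoter peak in control and 7 in Taf4-inactivated enteroids, Krt20 being the difference. The 6 shared epithelial markers included Vil1, at percentile 94.0 in control and 75.1 after inactivation, and Cdx2, at 91.8 and 94.6. They also included Cdx1, near the bottom of both lists by fold at 9.74 and 0.679. Ranked by p instead of fold, Vil1 stood at 97.0 and 98.2, Cdx2 at 96.8 and 92.2, and Cdx1 at 69.7 and 43.9. Of the enterocyte markers, Alpi (percentiles 41.5 and 22.2), Anpep (46.2 and 46.9) and Slc5a1 (90.1 and 82.2) had one in each list, while Sis had none in either. Of 5 immune cell markers, 0 had one in either list. Markers of other tissues had promoter peaks too. These were 3 of 4 fibroblast genes in each list, with Col1a1 at percentiles 10.7 in control and 18.1 after inactivation, Col1a2 at 52.70 and 30.03, Pdgfra at 74.3 and 33.3, and Dcn without a peak, and 2 of 4 liver genes in each list, with Alb without a peak. The liver genes with a peak ranked as high as many epithelial markers, Ttr at percentiles 88.5 in control and 88.7 after inactivation and Apoh at 92.8 and 83.3. Of 3 endothelial genes, 2 had a promoter peak in control and 1 after inactivation, Kdr standing at 93.1 and 35.9. The part of other cells in the results was not tested.

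The DNA just upstream of 5 of the genes is shown because their promoter peaks either appeared in the Taf4-inactivated list alone (Fabp1, Fabp2) or had no CpG-rich promoter and a higher percentile there (Apoa4, Apoc3, Npc1l1). Each line gives the 300 bases before the gene start on the strand of the gene, in mm9, in lower case. Capitals mark the letters of 8 short recognition sequences searched on both strands, with the share of protein-coding genes whose own 300 bases held a match. For HNF4 and other nuclear receptors the sequences were CAAAGTCCA (held by 0.474% of genes) and CAAAGGTCA (0.402%). The former is called HNF4 letters below and the latter nuclear receptor letters, although the latter were searched for HNF4 as well as other nuclear receptors. The first form searched for GATA factors was AGATAA (11.5%). The second form searched for these factors was TGATAA (9.10%). For AP-1 the letters searched were TGACTCA (4.50%). The first form searched for CDX2 was TTTATTG (4.92%). The second form searched for CDX2 was TTTATGG (2.88%). For HNF1 the letters were GTTAATNAT (0.804%). The GATA forms differ from each other in 1 letter and the CDX2 forms likewise.
Apoa4, chr9:46048479-46048778, plus strand: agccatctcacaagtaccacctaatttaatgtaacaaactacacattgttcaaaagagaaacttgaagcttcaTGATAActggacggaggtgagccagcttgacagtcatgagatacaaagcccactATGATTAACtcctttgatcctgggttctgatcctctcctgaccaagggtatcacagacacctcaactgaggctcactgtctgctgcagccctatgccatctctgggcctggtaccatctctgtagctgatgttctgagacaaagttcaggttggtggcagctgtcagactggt
Apoc3, chr9:46043720-46044019, minus strand: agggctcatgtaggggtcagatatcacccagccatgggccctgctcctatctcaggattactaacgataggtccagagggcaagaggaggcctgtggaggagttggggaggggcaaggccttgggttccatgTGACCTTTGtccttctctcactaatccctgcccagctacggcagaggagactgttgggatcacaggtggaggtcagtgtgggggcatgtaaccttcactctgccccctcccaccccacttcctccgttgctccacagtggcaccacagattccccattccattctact
Fabp1, chr6:71149521-71149820, plus strand: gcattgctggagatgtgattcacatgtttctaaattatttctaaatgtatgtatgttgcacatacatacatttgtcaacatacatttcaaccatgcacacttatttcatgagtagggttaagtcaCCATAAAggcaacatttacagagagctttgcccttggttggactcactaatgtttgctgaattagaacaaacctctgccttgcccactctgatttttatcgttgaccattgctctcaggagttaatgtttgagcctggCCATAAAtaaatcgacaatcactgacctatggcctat
Fabp2, chr3:122597690-122597989, plus strand: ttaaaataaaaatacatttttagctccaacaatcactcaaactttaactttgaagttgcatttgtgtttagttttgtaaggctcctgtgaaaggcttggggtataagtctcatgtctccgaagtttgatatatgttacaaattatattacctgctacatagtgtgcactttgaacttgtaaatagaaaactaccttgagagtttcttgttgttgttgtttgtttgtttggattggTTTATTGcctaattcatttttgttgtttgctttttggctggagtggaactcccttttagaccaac
Npc1l1, chr11:6130147-6130446, minus strand: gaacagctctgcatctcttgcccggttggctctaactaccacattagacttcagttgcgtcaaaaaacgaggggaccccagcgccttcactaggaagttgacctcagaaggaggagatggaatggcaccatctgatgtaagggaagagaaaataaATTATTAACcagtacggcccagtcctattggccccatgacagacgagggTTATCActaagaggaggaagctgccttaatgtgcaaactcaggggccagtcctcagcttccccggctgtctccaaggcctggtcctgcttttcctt

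In Apoc3 the nuclear receptor letters began 168 bases before the gene start and lay inside the promoter peak of both lists. In Npc1l1 the HNF1 letters began 145 bases and the GATA letters 96 bases before the start, again inside the peaks of both lists. In Fabp1 the CDX2 letters were found 175 and 37 bases before the start, and those nearer to it lay inside the peak called after Taf4 inactivation. In Apoa4 (GATA letters at 227 bases and HNF1 letters at 173) and in Fabp2 (CDX2 letters at 65) the matches lay outside the promoter peaks. The same window of Apoa1, Apob, Mttp, Dgat1 and Dgat2 held 0 matches, which says only that these letters were not there. A match is a description of the sequence and not a bound site.

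Promoter peaks were present for 8 of the 10 genes in control (68.4% of all protein-coding genes) and for 9 in Taf4-inactivated enteroids (65.5%). For 7 genes they were present in both lists (62.7%). Only the control list had one for Apoa1 (5.70% of protein-coding genes), and only the Taf4-inactivated list had one for Fabp1 and Fabp2 (2.90%). The genes were mostly poor in CpG around their start. The observed over expected CpG ratio within 500 bp of the start was below 0.6 in 7 of 10, from 0.121 in Apoa4 to 0.347 in Apob, against 0.783 in Dgat2, 0.895 in Dgat1 and 1.09 in Mttp. Among all protein-coding genes below 0.6, 44.3% had a promoter peak in control and 39.6% after inactivation, beside 5 of 7 and 6 of 7 of the lipid genes.

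**Figure D1:**
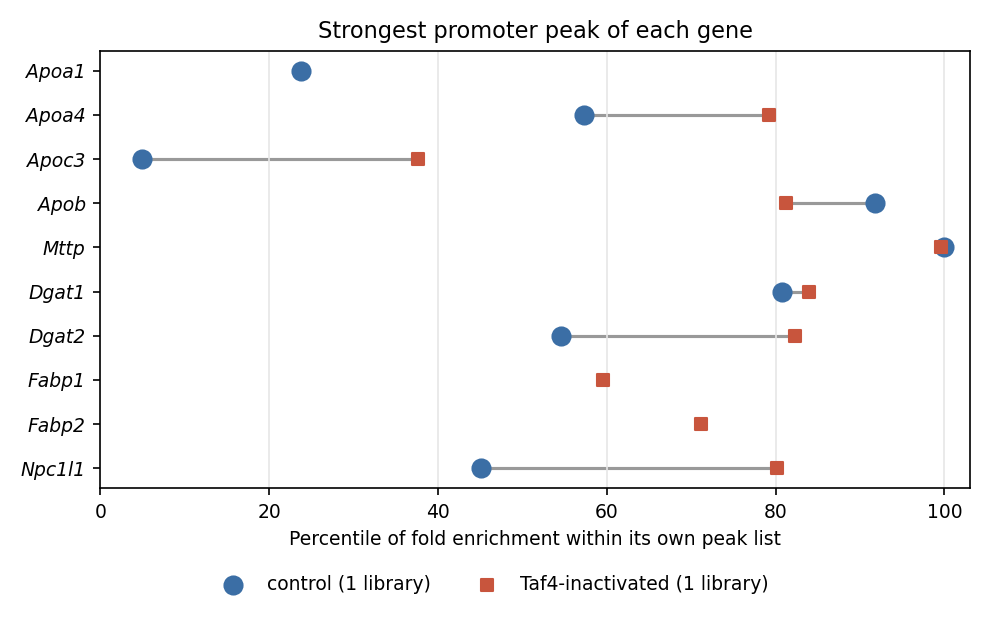
Percentile of fold enrichment, within its own peak list, of the strongest promoter peak of each of the 10 genes (circles, control; squares, Taf4-inactivated; 1 library each; a missing symbol means that no promoter peak was called). Apoc3, Npc1l1, Dgat2 and Apoa4 stood at higher percentiles in the Taf4-inactivated list, Mttp was near the top of both, and Apob was lower.

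Npc1l1, the brush border protein through which cholesterol enters enterocytes (ENSMUSG00000020447.4, chr11:6111016-6130146, minus strand), had a promoter peak in both lists. It spanned 6128811 to 6130425 in control, with a fold of 2.01 at percentile 45.1, and 6130071 to 6130448 after inactivation, with a fold of 3.15 at percentile 80.2. The difference of 35.1 points was the largest of the 7 genes. The peaks differed in shape, since the control peak was 1615 bp wide and ran into the first part of the gene, while that of Taf4-inactivated enteroids was 378 bp wide and held the start site and the upstream DNA printed above. Ranked by p, the difference was 13.3 points, and ranked by fold times width it was −45.6 points.

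The intracellular fatty acid carriers shared a pattern of calls. Fabp1, the liver-type fatty acid-binding protein (ENSMUSG00000054422.7, chr6:71149821-71155017, plus strand), had no control promoter peak, and a Taf4-inactivated peak from 71149726 to 71149942, 217 bp wide, with a fold of 2.59 at percentile 59.6 and a −log10 q of 2.71. Fabp2, the intestinal-type protein (ENSMUSG00000023057.5, chr3:122597990-122602424, plus strand), had no control promoter peak either. Its Taf4-inactivated peak spanned 122598146 to 122598481, 156 bp downstream of the start, with a fold of 2.85 at percentile 71.1 and a −log10 q of 3.77. Both peaks were narrow and of middle rank, and they were absent from both lists at a −log10 q of at least 5.

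Of the enzymes that complete triglyceride synthesis, Dgat1 (ENSMUSG00000022555.5, chr15:76332445-76342381, minus strand) had nearly the same promoter peak in both lists. It covered 76341423 to 76342684 in control, with a fold of 2.31 at percentile 80.7, and 76340966 to 76342684 after inactivation, with a fold of 3.32 at percentile 84.0, a difference of 3.27 points. A further promoter peak of Dgat1, from 76336114 to 76336453 in an intron and 489 bp from an internal start site, was called in the Taf4-inactivated list alone, at percentile 74.7. Dgat2 (ENSMUSG00000030747.4, chr7:106302173-106331223, minus strand), whose enzyme catalyses the same step, differed more. Its peak spanned 106330798 to 106331666 in control, with a fold of 2.06 at percentile 54.6, and 106330900 to 106331845 after inactivation, with a fold of 3.24 at percentile 82.2. The difference of 27.7 points was 11.5 when ranked by p.

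Mttp, the transfer protein that loads lipid onto apolipoprotein B (ENSMUSG00000028158.8, chr3:137752819-137806352, minus strand), had the strongest promoter peak of the set. It spanned 137806291 to 137807103 in control, with a fold of 4.26 at percentile 99.9, and 137806167 to 137807113 after inactivation, with a fold of 5.48 at percentile 99.6. The difference was −0.282 points, and 4.75 by fold times width. This peak also lay within 1 kb of a start site of the divergent gene Rg9mtd2, and the accessibility of the 2 promoters cannot be told apart. A second peak, from 137794122 to 137794459 over an internal start site of Mttp, was called in the Taf4-inactivated list alone, at percentile 69.9.

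Apob, which encodes the structural protein of chylomicrons (ENSMUSG00000020609.8, chr12:7984454-8023641, plus strand), stood apart from the other apolipoprotein genes. Its promoter peak had a fold of 2.66 at percentile 91.8 in control (7983995 to 7985557) and of 3.19 at percentile 81.3 after inactivation (7984236 to 7985611). The difference of −10.5 points was the largest in that direction among the 7 genes.

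Apoa1, Apoc3 and Apoa4 are neighbours on chromosome 9. Apoa4 (ENSMUSG00000032080.6, chr9:46048779-46051542, plus strand), a major apolipoprotein of chylomicrons, had a promoter peak at percentile 57.4 in control (46048649 to 46049372, fold 2.07) and 79.3 after inactivation (46048657 to 46049190, fold 3.11), a difference of 21.9 points. The Taf4-inactivated peak was narrower, 534 bp against 724 bp, and by fold times width the difference was −1.42 points. Apoc3 (ENSMUSG00000032081.3, chr9:46041016-46043719, minus strand), whose protein slows the clearance of triglyceride-rich particles, had one of the weakest peaks of the control list, at percentile 4.98 (46043586 to 46043965, fold 1.76). Its Taf4-inactivated peak stood at percentile 37.6 (46043326 to 46044072, fold 2.31), which is 32.7 points higher by fold and 59.0 points higher by p.

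Apoa1, the main apolipoprotein of high-density lipoprotein (ENSMUSG00000032083.8, chr9:46036663-46038549, plus strand), had a control promoter peak from 46037030 to 46038397, with a fold of 1.91 at percentile 23.8. Its call in the control list alone turned on the 1 kb limit. In Taf4-inactivated enteroids a peak from 46037926 to 46038429, which overlapped the control peak by 472 bp, lay 1122 bp from the nearest start site and had a fold of 3.05 at percentile 77.6. Another, from 46035050 to 46035455, lay 1208 bp upstream of the gene, with a fold of 3.19 at percentile 81.3 and no control partner. With a limit of 2 kb, Apoa1 had a promoter peak in both lists. The middle of the upstream peak is printed because it had the highest fold of the Taf4-inactivated distal peaks in the Apoa1 window, with the GATA letters found in it in capitals.
Apoa1 upstream peak, chr9:46035103-46035402, plus strand: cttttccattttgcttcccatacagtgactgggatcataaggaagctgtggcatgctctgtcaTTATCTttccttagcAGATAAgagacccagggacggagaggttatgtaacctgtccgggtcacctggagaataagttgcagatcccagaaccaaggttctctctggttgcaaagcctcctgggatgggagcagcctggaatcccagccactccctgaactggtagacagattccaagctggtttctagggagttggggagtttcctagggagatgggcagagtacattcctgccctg

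**Figure D2:**
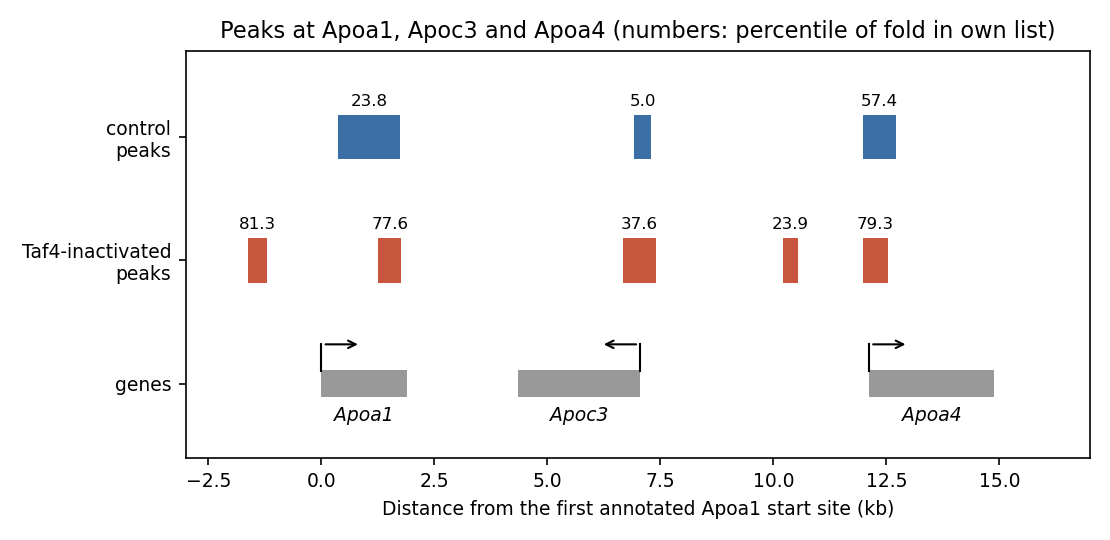
Peaks of the control and Taf4-inactivated lists (bars, to scale) around Apoa1, Apoc3 and Apoa4, by distance in kb from the first annotated Apoa1 start site, with the percentile of fold of each peak above it and gene bodies below (arrows, direction of transcription from the gene start). The Taf4-inactivated list had 5 peaks in this stretch, at percentiles 23.9 to 81.3, and the control list 3, at 4.98 to 57.4.

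For the 7 genes with a promoter peak in both lists, the median difference was 21.9 points by fold, beside −2.77 for the 14022 protein-coding genes with such peaks. The quartiles of the latter were −10.6 and 2.35. By fold times width the median of the 7 genes was 4.75 points, and the differences of Apoa4, Npc1l1 and Mttp changed sign. Percentiles were higher after inactivation for 5 genes (34.1% of protein-coding genes with both peaks) and lower for 2 (Apob and Mttp). A difference of 25 points or more was seen for Npc1l1, Apoc3 and Dgat2 (5.93% of protein-coding genes), and of −25 or beyond for 0 (9.07%). Peaks low in the control list have more room to move up. Among protein-coding genes below percentile 60 in control, 29.1% had a difference of 25 points or more, beside 3 of 4 lipid genes. Among those with a CpG ratio below 0.6, the share was 9.22%, beside 2 of 4 lipid genes (Apoc3 and Npc1l1, but neither Apoa4 nor Apob). Ranked by p, the median was 11.5 points, beside −2.66 for protein-coding genes, and Apoc3 alone reached 25 points (2.79%). The peaks of 6 of the 7 genes overlapped by at least 50% of both, the exception being Npc1l1.

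**Figure D3:**
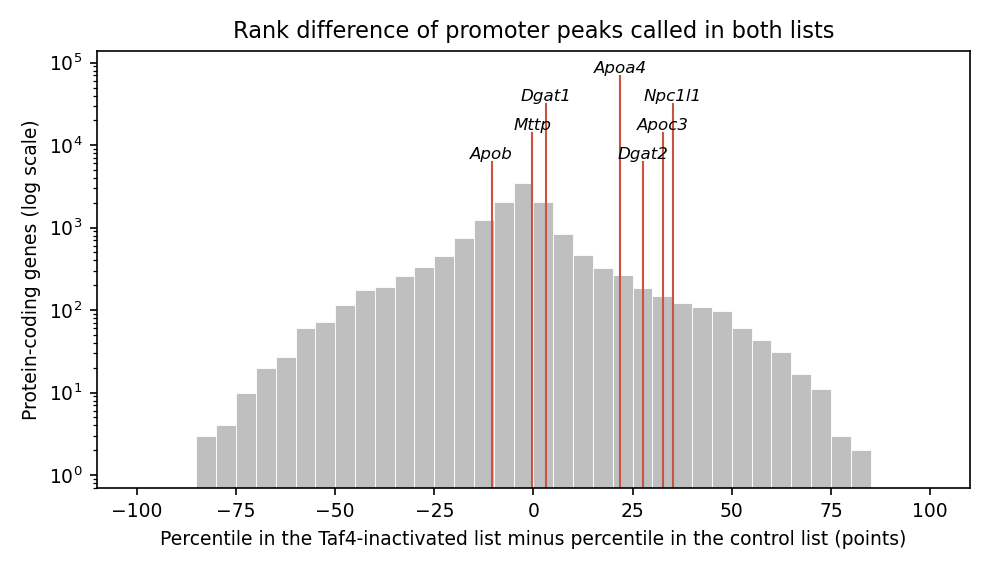
Number of protein-coding genes (log scale) by the difference between the percentile of the strongest promoter peak in the Taf4-inactivated and in the control list, in points, with vertical lines for the 7 lipid genes. Apob lay at −10.5, Mttp and Dgat1 near 0, and Apoa4, Dgat2, Apoc3 and Npc1l1 between 21.9 and 35.1.

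The windows of the 10 genes held 70 distal peaks in the control list and 79 in the other, each peak counted once although the windows of Apoa1, Apoc3 and Apoa4 overlap. In all, 12 control and 10 Taf4-inactivated peaks lay in more than 1 window. By place, 28 control peaks were intronic, 28 intergenic and 14 over an exon, and after inactivation there were 33, 28 and 18. Some are promoters of neighbours, since 19 control and 16 Taf4-inactivated distal peaks lay within 1 kb of a start site of another gene.

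Of the 70 control distal peaks, 27 (38.6%, exact 95% confidence interval 27.2 to 51.0) had no overlapping Taf4-inactivated peak, beside 52.0% of distal peaks in the windows of all protein-coding genes. Of the 79 Taf4-inactivated distal peaks, 36 (45.6%, 34.3 to 57.2) had no control partner, beside 39.3%. Within 100 kb the order turned, at 43.1% in control and 40.8% after inactivation. These Clopper-Pearson intervals cover counting error only. The peaks without a partner were weaker and narrower. In control their median percentile was 31.2 and their median width 442 bp, against 59.0 and 757 bp for partnered peaks. After inactivation they were 48.6 and 338.5 bp, against 73.1 and 695 bp. Among the top 10% of their lists were 8 control and 5 Taf4-inactivated distal peaks, all of them with partners. The share of such peaks with a partner in all windows is not given here, so this cannot be read as particular to these genes. A −log10 q of 5 or more was reached by 10 control distal peaks, all partnered, hence by 0 of the 27 without a partner (0.234% in all windows). Of the 36 Taf4-inactivated peaks without a partner, 7 did (8.79%).

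**Figure D4:**
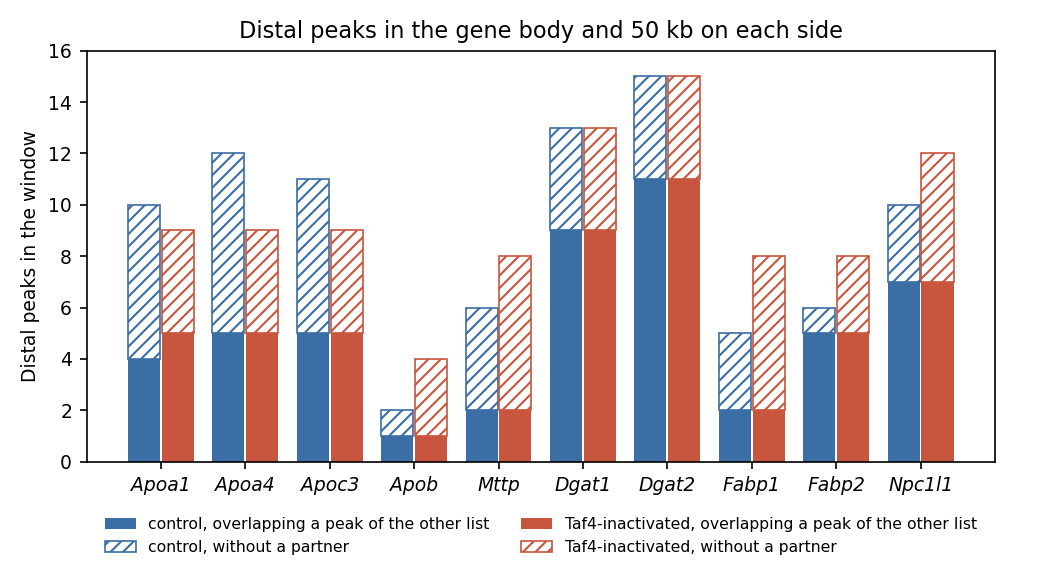
Number of distal peaks in the gene body and 50 kb on each side of each gene, for control (left bar) and Taf4-inactivated enteroids (right bar), divided into peaks that overlap a peak of the other list (filled) and peaks without a partner (hatched). Windows of Apoa1, Apoa4 and Apoc3 share peaks. Apoa1, Apoa4 and Apoc3 had fewer after inactivation (more within 20 kb), Dgat1 and Dgat2 the same number, and the others more.

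Per gene, Taf4-inactivated enteroids had more distal peaks than control for 5 of the 10 genes (19.1% of protein-coding genes). They had the same number for 2 (22.4%) and fewer for 3 (58.5%). The 5 were Fabp1 (5 in control and 8 after inactivation), Fabp2 (6 and 8), Npc1l1 (10 and 12), Mttp (6 and 8) and Apob (2 and 4). Dgat1 (13 and 13) and Dgat2 (15 and 15) did not differ in number. The 3 with fewer were Apoa1 (10 and 9), Apoa4 (12 and 9) and Apoc3 (11 and 9). For these 3 the direction turned with windows of 20 kb (differences of 4, 1 and 3 peaks), with a −log10 q of 2 or more (3, 1 and 1) or 5 or more (4, 3 and 4), and without peaks at any start site (1, 1 and 1). In the median protein-coding gene the number was 8 in control and 6 after inactivation, and summed over all these windows the Taf4-inactivated count was 0.794 of the control count, beside 1.13 for the lipid genes (79 against 70 peaks). Within 100 kb the lipid genes had fewer after inactivation, 125 against 130.

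Of the distal peaks in the windows of the 10 genes, the one with the highest fold after inactivation lay near Fabp2. It stood at −16.0 kb from the Fabp2 start, in an intron of the annotated gene 4933405D12Rik. Among the control distal peaks of these windows it came second, after the Uvrag promoter in the Dgat2 window. In control it spanned 122581847 to 122582128, with a fold of 3.11 at percentile 97.0. After inactivation it spanned 122581749 to 122582204, with a fold of 5.43 at percentile 99.6 and a −log10 q of 21.1. Its control interval is printed because of these ranks and because it lay away from any start site. It held none of the 8 recognition sequences.
Fabp2 distal peak, chr3:122581847-122582128, plus strand: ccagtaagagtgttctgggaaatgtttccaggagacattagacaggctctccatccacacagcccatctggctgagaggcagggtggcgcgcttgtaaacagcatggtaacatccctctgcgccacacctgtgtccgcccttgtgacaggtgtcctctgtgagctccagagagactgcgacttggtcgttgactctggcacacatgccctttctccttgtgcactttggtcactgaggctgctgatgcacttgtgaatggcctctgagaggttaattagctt

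The other 4 shared peaks of the Fabp2 window differed in both directions. A peak at −17.7 kb stood at percentile 40.7 in control and 56.5 after inactivation. A peak at −6.49 kb stood at percentile 62.6 in control and 69.9 after inactivation. The peak at 29.3 kb, at a start site of 4933405D12Rik, stood at 91.7 and 91.6. A peak at 9.95 kb, from 122607747 to 122608140 in control and 122607101 to 122608082 after inactivation, stood at 71.1 and 32.5, a difference of −38.6 points. The peaks overlapped by less than 50% of the wider one. A peak in the Fabp2 gene itself, at 3.29 kb, was called in the Taf4-inactivated list alone, at percentile 63.9.

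In the Fabp1 window 2 pairs were shared, and they differed in opposite directions. A peak at −35.2 kb from the start, 71114296 to 71114946 in control and 71114239 to 71114870 after inactivation, overlapped by 575 bp and stood at percentile 91.5 in control (fold 2.65) and 13.7 after inactivation (fold 2.13). That difference of −77.8 points was the largest of all 43 shared distal pairs, and it was −63.9 by p. The next coding start site was that of Thnsl2, 19956 bp away. Close to it, a control peak at −33.0 kb (percentile 89.2) had no partner, although a Taf4-inactivated peak began a few bases beyond its end (71116890 to 71117417, percentile 22.7).

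Nearer to Fabp1 the order turned. A shared peak at −14.8 kb, 71134692 to 71135383 in control and 71135022 to 71135397 after inactivation, stood at percentile 77.2 (fold 2.26) and 94.0 (fold 4.05). A Taf4-inactivated peak at −26.8 kb (71122522 to 71123442, percentile 88.7) had no control partner. Among the unpartnered Taf4-inactivated distal peaks in the windows of the 10 genes it ranked highest. Within the gene, a control peak at 2.20 kb (percentile 67.9) had no partner. The middle of the Taf4-inactivated peak at −14.6 kb, the strongest of that list in the window, is printed with its CDX2 letters in capitals.
Fabp1 distal peak, chr6:71135060-71135359, plus strand: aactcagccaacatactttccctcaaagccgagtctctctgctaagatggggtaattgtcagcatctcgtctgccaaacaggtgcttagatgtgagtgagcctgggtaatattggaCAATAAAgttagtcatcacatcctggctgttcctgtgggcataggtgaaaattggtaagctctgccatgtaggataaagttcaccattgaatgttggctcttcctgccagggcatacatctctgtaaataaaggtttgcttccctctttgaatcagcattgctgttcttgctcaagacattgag

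Around Dgat1, 9 of 13 distal peaks of each list were partnered, and the larger differences were upward from a low control rank. A peak at −30.9 kb, 76373058 to 76373469 in control and 76372984 to 76373376 after inactivation, stood at percentile 1.74 and 66.2, a difference of 64.5 points by fold and 58.6 by p. A peak at 30.9 kb in an intron of Hsf1 stood at 20.0 and 77.3, a difference of 57.3 points. The strongest distal peak of the Dgat1 window in both lists was the promoter of Bop1 and Hsf1, at percentile 90.6 in control and 86.0 after inactivation.

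Dgat2 had 11 partnered peaks of 15 in each list, 5 of the pairs in its own body. A peak at 20.8 kb in an intron of Dgat2, 106310070 to 106310797 in control and 106309989 to 106310439 after inactivation, stood at percentile 32.2 and 80.5, a difference of 48.3 points by fold and 15.97 by p. The strongest peak of its window was the Uvrag promoter at 41.5 kb, at percentile 97.6 in control and 93.8 after inactivation. Upstream the window reached Mogat2, the monoacylglycerol acyltransferase gene of the same pathway. Shared intronic peaks of Mogat2 stood at percentiles 59.0 and 62.4 in control and 81.5 and 73.1 after inactivation.

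In the Mttp window 2 pairs were shared, both in the gene. A peak at 9.28 kb stood at percentile 60.4 in control and 84.6 after inactivation, and one at 15.1 kb at 33.6 and 73.2. A Taf4-inactivated peak at 21.6 kb in a Mttp intron (137784508 to 137784940, fold 3.45, percentile 86.4) had no partner, nor had the strongest control distal peak, at −42.8 kb and a start site of 4930579F01Rik (percentile 81.1).

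Apob had the emptiest window. Its 1 shared distal peak lay at 86.6 kb from the start, beyond the end of the gene, at percentile 62.4 in control and 20.9 after inactivation, a difference of −41.5 points by fold and −36.6 by p. Its strongest Taf4-inactivated distal peak, at 6.98 kb in an Apob intron, stood at percentile 48.9 and had no partner.

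In the Npc1l1 window 7 pairs were shared, 3 of them higher and 4 lower after inactivation. The higher pairs lay at −2.61 kb (percentiles 13.9 and 40.9), −22.4 kb (31.3 and 68.2) and the Ddx56 start site (79.2 and 84.7). The lower pairs differed by −4.01 to −15.3 points, and the last of these was the Nudcd3 promoter. A Taf4-inactivated peak at −24.7 kb (percentile 80.4) had no partner. The strongest peaks of the window were start sites of neighbours, Nudcd3 in control (percentile 95.4) and Ddx56 after inactivation (84.7).

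In the windows of the chromosome 9 apolipoprotein genes, 7 of 13 control and 5 of 11 Taf4-inactivated distal peaks had no partner. The strongest in control were promoters of neighbours, Bud13 at percentile 95.1 and Zfp259 at 88.8. After inactivation Bud13 (90.9) was again the strongest. The unpartnered peak upstream of Apoa1 (81.3) came next, and Zfp259 stood lower, at 73.0. Control peaks without a partner included those at 28.7 and 32.6 kb from the Apoa1 start (percentiles 35.1 and 64.5) and a pair at the start sites of Apoa5, at 39.2 and 40.8 kb (5.27 and 2.68). A shared peak in an intron of Sik3, at −21.3 kb, stood at 63.7 in control and 80.4 after inactivation.

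Over the 43 shared distal pairs the median difference was 7.31 points by fold and 5.70 by p, beside −2.08 and −3.16 for the 35145 pairs in the windows of all protein-coding genes. By fold times width it was 0.878. The Dgat1 and Dgat2 windows gave 9 and 11 of the pairs, so the median does not weigh the genes equally. The percentile was higher after inactivation in 26 pairs (42.8% of all pairs) and lower in 17. A difference of 25 points or more was seen in 13 pairs (11.5% of all pairs) and one of −25 or beyond in 3 (15.4%). All 13 were below percentile 60 in control, where 22 of the pairs stood, and 24.9% of such pairs in all windows reached 25 points. Of the 13, 8 overlapped by at least 50% of both peaks. The 13 pairs included that of the Apoc3 promoter peaks, which overlapped by at least 50% of both. They also included the pair of the control Apoa1 promoter peak, which did not. These promoter peaks are distal peaks of their neighbours. By p, 9 pairs reached 25 points (9.32%), 7 of them also by fold.

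**Figure D5:**
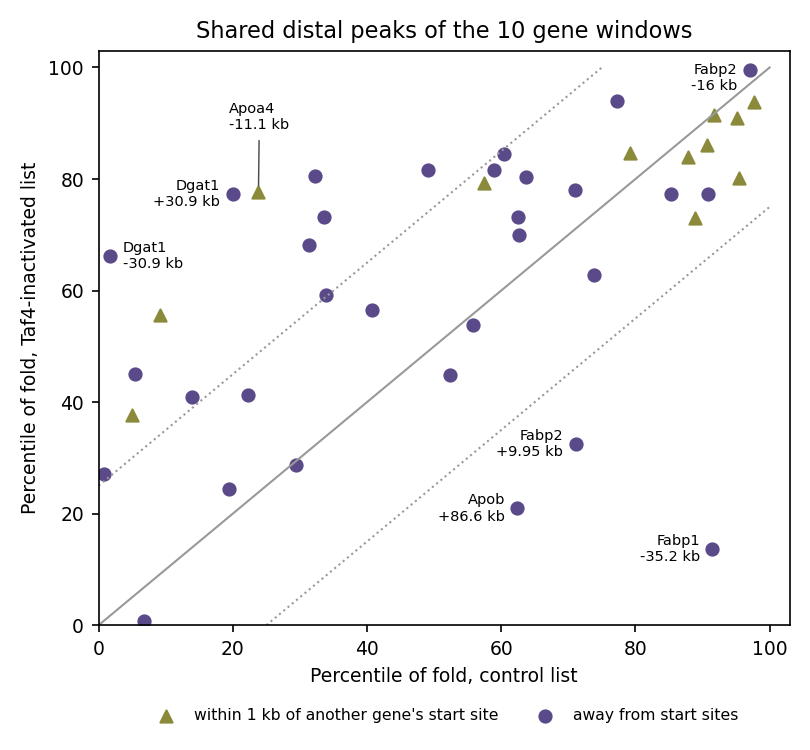
Percentile of fold of the 43 shared distal peaks in the control list (x axis) and the Taf4-inactivated list (y axis), with the line of equal percentiles and dotted lines 25 points away. Triangles lie within 1 kb of a start site of another gene, circles away from start sites, and labels give the window and the distance from the gene start. In all, 13 pairs lay on or above the upper dotted line and 3 below the lower.

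The recognition sequences were also counted in the middle 300 bases of the 51 control and 63 Taf4-inactivated distal peaks away from start sites of any gene, beside the share of all such peaks in each list. AP-1 letters were found in 3 and 9 peaks (7.78% and 11.1% of all). HNF4 letters were found in 0 and 2 (0.839% and 1.72%), nuclear receptor letters in 0 and 2 (0.821% and 1.55%) and HNF1 letters in 0 and 1 (0.592% and 1.03%). In the order listed above, the GATA forms were found in 4 and 9 (11.5% and 15.04%) and in 5 and 9 (9.05% and 11.6%), and the CDX2 forms in 4 and 7 (4.08% and 5.04%) and in 2 and 2 (3.17% and 3.86%). These counts are small, and no test was made of them.

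Among 33 other genes of enterocyte lipid handling, 29 had a promoter peak in control and 30 after inactivation, 28 in both. Their median difference was −1.53 points by fold and −0.185 by p. A difference of 25 points or more was seen for 4 of the 28, namely Cideb (43.0 points) and Plin3 (40.3), both proteins of lipid droplets, Soat2 (36.6), which esterifies cholesterol, and Agpat2 (32.4), an enzyme of glycerolipid synthesis. It was −25 or beyond for 2, Sar1b (−36.1), which builds the coat of vesicles that carry chylomicrons, and Tm6sf2 (−29.2). Ranked by p, the differences were 11.6 for Cideb, 3.01 for Plin3, 50.3 for Soat2 and 5.09 for Agpat2. By p they were −25.8 for Sar1b and −17.6 for Tm6sf2. In control, Cideb, Plin3, Soat2 and Agpat2 stood low, at percentiles 29.5, 19.2, 4.75 and 28.6. The other genes below percentile 60 in control with both peaks were Lpin3 (16.3 points), Acsl5 (−9.98) and Rxra (−1.03). Apoa5 was called in the control list alone, and Apobec1, the enzyme that edits Apob mRNA, and the regulator Creb3l3 in the Taf4-inactivated list alone. Cd36 and Apoe had a promoter peak in neither list.

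The genes most like the lipid genes by cell type gave medians near that of all protein-coding genes. For 10 brush border structure genes, all with promoter peaks in both lists, the median was −1.58 points, with 2 at 25 points or more (Myo1a, 33.2, and Cdhr5, 32.9) and 2 at −25 or beyond (Espn, −40.0, and Slc9a3r1, −28.0). For 10 sugar and peptide digestion genes it was −0.850 over the 6 genes with both peaks, with 0 at 25 points in either direction, and Mgam, which digests starch, was called after inactivation alone. These medians were not matched for rank in control. The brush border genes below percentile 60 in control were Myo1a (47.2), Cdhr5 (15.4) and Ush1c (38.2, a difference of 21.0 points), all higher after inactivation. Ranked by p, the differences of Myo1a, Cdhr5 and Ush1c were 23.7, 9.42 and 0.827 points. Those of Espn and Slc9a3r1 were −32.0 and −7.69 by p. The sugar and peptide digestion genes below percentile 60 in control were Anpep (46.2, a difference of 0.729 points) and Slc15a1 (55.5, 15.6 points). Distal peaks summed over the windows, counting a peak once per gene, numbered 90 in control and 95 after inactivation for the lipid genes, 394 and 355 for the other lipid pathway genes, 140 and 117 for brush border genes and 87 and 96 for sugar and peptide digestion genes.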

How the data were processed

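The data were ATAC-seq peaks of 2 enteroid libraries, grouped by the genotype in the labels (1 control, 1 Taf4-inactivated). Per the methods and the submitters' processing notes, the authors made reads with bcl2fastq 2.17.1.14, mapped unique reads to mm9 with Bowtie 1.0.0 and called broad peaks per library with MACS2 2.1.1, using no model and an extension size of 200 bp. In the deposited score the −log10 q is multiplied by 10 and its decimals are dropped. The deposited fold compares a peak with its own library's background, and the deposited −log10 p and −log10 q are the authors' averages over each peak, with lowest −log10 q values of 1.01 and 1.00. The treatment of duplicate and mitochondrial reads is not given in the sources used here.

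Positions were made 1-based and joined to the NCBIM37 genome and GENCODE annotation of the same build, with the start sites of all transcripts. The printed sequences were read from that genome. Peaks were partners when they overlapped by at least 1 bp, and pairs were peaks that overlapped each other best. For each gene the promoter peak with the highest fold was ranked within its list. Relative depth was solved from fold and p. The search for partners, the pairing, the promoter limit and the depth estimate were tested on simulated data. In the depth check p followed exactly from the simulated fold and background, whereas the deposited p is an average over each peak. With 1 library per genotype no test between genotypes was made. Values were computed with Python 3.11.15, numpy 2.4.6, pandas 2.3.3, scipy 1.17.1, pysam 0.24.0 and samtools 1.23.1, and figures with matplotlib 3.10.9.

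The genes, lists, recognition sequences and limits were chosen with earlier results of these data known. Named were the 10 genes, genes of the other lists with a promoter peak in 1 list only, the 6 of them with the largest rank differences (Agpat2, Cdhr5, Slc9a3r1 and Tm6sf2 were named after their values were seen), for each gene its distal peak with the highest fold in each list, unpartnered distal peaks among the top 10%, and the 3 shared distal pairs with the largest differences in each direction. Further distal peaks, and the genes of the other lists below percentile 60 in control, were named after their values were seen. The comparisons with genes or pairs below percentile 60 in control, or below a CpG ratio of 0.6, were also added after the data had been seen. Part of the marker list is not reported here. Alternatives changed the start site distance, the transcripts, the windows, the q limit, the overlap and the ranking value.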

Additional observations from a re-analysis of the deposited data

How the results depend on the processing

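The limits are these. Each genotype had 1 library, the libraries differed in depth, and peaks were called separately, so a missing partner can lie just under the call threshold. Percentiles follow the makeup of each list. No paired analysis was possible because each genotype had 1 library.

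With peaks limited to a −log10 q of 5 or more, 3 genes had a promoter peak in control and 6 after inactivation. The shares of all protein-coding genes at this limit are not given here, so these counts cannot be read as particular to the lipid genes. In the windows of all protein-coding genes, 0.234% of unpartnered distal peaks reached this limit in control and 8.79% after inactivation. Distal peaks numbered 31 in control and 36 after inactivation within 20 kb, 130 and 125 within 100 kb, 10 and 33 with a −log10 q from 5 up, and 40 and 62 from 2 up. The share without a partner was 10% in control and 72.7% after inactivation with the limit of 5, 32.5% and 56.5% with the limit of 2, 43.1% and 40.8% within 100 kb, and 60% and 64.6% when 50% of both peaks had to overlap. The q limits were applied to both lists before partners were sought. Of the 33 Taf4-inactivated distal peaks with a −log10 q of 5 or more, 26 overlapped a control peak of any q and 7 did not. Counts and shares over all protein-coding genes are not given here for these alternatives. The median promoter difference was 11.5 points by p, 16.4 among peaks of the same class (start site or distal) and 4.75 by fold times width. The median of shared distal pairs was 5.70 by p, 11.7 within the class, 0.878 by fold times width, 16.3 within 20 kb, 5.22 within 100 kb, 15.8 without peaks at any start site and 3.75 with overlap of 50% of both. Each of these alternatives left its median above 0.

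By fold times width the sign turned for Apoa4 (−1.42), Mttp (4.75) and Npc1l1 (−45.6 points). The difference in the number of distal peaks (after inactivation minus control) turned from −1 to 4 within 20 kb, 3 and 4 with the q limits of 2 and 5, and 1 without start sites for Apoa1. It turned from −3 to 1, 1, 3 and 1 for Apoa4 and from −2 to 3, 1, 4 and 1 for Apoc3 in the same order. The cause was not tested. Of 102 alternatives for single genes, 37 stayed close to the value reported, 50 moved it and 15 turned its sign. Of 52 for the counts, shares and medians over the genes, 30 stayed close and 22 moved. Within 100 kb both the order of the distal counts and that of the shares without a partner turned between the libraries.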
